A study of Mus musculus with 4 samples.

Results

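The nuclear genes of the mitochondrial respiratory chain were followed over 4 whole-genome arrays of mouse embryonic fibroblasts (MEFs). Genes were chosen by symbol, from the families Ndufa, Ndufb, Ndufc, Ndufs and Ndufv (complex I), Sdh (complex II), Uqcr (complex III), Cox4 to Cox8 (complex IV) and Atp5 (complex V). Matching gave 79 genes with 117 probes, of which 71 genes were detected, at a detection p-value under 0.01 on 1 array or more. They stand among 12616 genes detected in the same way. The brightest detected probe represented each gene.

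Each array measured 1 condition of primary MEFs of strain FVB;129, prepared from mice with both copies of Rb flanked by LoxP sites. Parental MEFs received solution without TAT-Cre, a cell-permeable recombinase, and the other MEFs received TAT-Cre to delete Rb, in 2 treatments of 1 hr each given 3 hr apart. Rb-deleted MEFs were given medium alone, while others were infected with retrovirus carrying wild type Rb (WT Rb-HA MEFs) or a mutant with 15 Cdk phosphorylation sites changed to alanine (ΔCdk Rb-HA MEFs). By the study's account all MEFs were arrested at confluence for 48 hr, released for 4 hr and exposed to 100 ng/ml doxorubicin for 3 hr, a treatment the labels do not mention. With 1 array per condition there is no replicate check on any difference, no p-value was computed, and the error given is the standard error over the beads of a probe, which covers measurement on the array only. Where a gene is given by 4 intensities, they follow the order parental, Rb-deleted, WT Rb-HA, ΔCdk Rb-HA, and where a gene or group is given by 3 log2 differences from parental, they follow the same order without the parental array.

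The respiratory chain passes electrons from NADH and succinate to oxygen and stores the energy as a proton gradient across the inner mitochondrial membrane. Complex I oxidises NADH, complex II oxidises succinate, complex III passes the electrons from ubiquinol to cytochrome c, complex IV reduces oxygen, and complex V, the ATP synthase, uses the gradient to make ATP. A few core subunits are encoded in mitochondrial DNA, whereas all others, and complex II as a whole, are encoded in the nucleus and imported. Fibroblasts rely on both respiration and glycolysis for ATP.

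Detected genes were 34 of 35 matched for complex I, 3 of 4 for complex II, 5 of 7 for complex III, 13 of 17 for complex IV and 16 of 16 for complex V. On all 4 arrays 70 genes were detected, and Ndufb11, a small subunit of the membrane arm of complex I, missed detection on the parental array alone. Of the 8 undetected genes, Cox4i2, Cox7b2, Cox8b and Cox8c encode tissue-restricted isoforms of complex IV. The other 4 encode subunits that every respiring cell uses: Ndufs1 of complex I, Sdha of complex II, and Uqcrfs1 and Uqcrq of complex III. All probes of the 8 genes lay at background on all 4 arrays, with intensities from 30.6 to 47.0, so that for the 4 ubiquitous subunits the arrays gave no measurement. Matched by symbol but not subunits in the list used were Ndufa12l, Cox4nb, Cox7a2l, Atp5s and Atp5sl, which are counted with the complex their symbol names. Ndufa4 was counted with complex I by its symbol, although it is now assigned to complex IV.

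Probes of these genes were among the brighter ones on the arrays. The median intensity of the 71 genes was 1906, 1994, 2036 and 2119 over the 4 arrays. Their median brightness lay at percentile 90.6 of all genes. Brightness belongs to a probe as much as to its transcript, so levels were compared between arrays only. Intensities of the 3 brightest on the parental array, Atp5g3, Atp5b and Ndufa13, differed from parental by between -0.04 and 0.10 on the log2 scale on the other arrays.

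As a check of the arrays, mean intensity ran from 336 to 346, 15950 to 16740 probes were detected and each probe rested on a median of 44 beads. The brighter probe of Rb1 read 543, 160.5, 181 and 170.1. Both Rb1 probes lie far along the transcript, at bases 4421 and 4002. Whether they fall in the deleted stretch, or in the Rb carried by the retroviruses, is not given in the sources used here. The study reports retroviral Rb protein at physiologic levels in both Rb-HA MEFs. All 12 fibroblast markers were detected, and their summed intensity ran from 97146 to 103137. Of 20 leukocyte markers 17 were detected, while Ptprc, Itgam and Fcer1g were not, and the summed intensity was 12477 on the parental array against 6100 to 7661 on the other 3. Among 15 detected targets of E2F at the G1/S transition, 13, 9 and 13 were past 1.6-fold higher than parental. Of all genes 2.14%, 0.888% and 2.58% were. The list of targets was chosen with earlier results of these data known.

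The question for the chain was how its genes stood after loss of Rb and after replacement by wild type Rb or by Rb without these Cdk sites. Genes of the chain were slightly higher than parental on all 3 other arrays, by small steps spread over most genes. In Rb-deleted MEFs 61 of 71 genes were above the parental value, where 52.3% of all genes were, and 10 were below, where 47.5% of all genes were. The median log2 difference was 0.15, a ratio of 1.11, beside 0.02 over all 12616 genes. Past 0.32 on the log2 scale, the smaller of the limits used, were 18 genes, all higher, beside 14.8% of all genes higher and 13.2% lower. By more than 2 bead standard errors 42 genes were higher (26.6% of all genes) and 3 lower (24.6% of all genes).

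In WT Rb-HA MEFs 60 genes were above parental and 11 below, beside 51.3% and 48.6% of all genes. Their median log2 difference was 0.23, a ratio of 1.17, beside 0.01 over all genes. Past 0.32 were again 18 genes, all higher, where 12% of all genes were higher and 12% lower. By more than 2 bead standard errors 49 were higher (23.6% of all genes) and 3 lower (23.2%).

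In ΔCdk Rb-HA MEFs 66 genes were above parental and 5 below, beside 48.9% and 50.9% of all genes. The median log2 difference was 0.26, a ratio of 1.19, against -0.01 over all genes. Past 0.32 were 26 genes, all higher (15.1% of all genes higher, 15% lower). By more than 2 bead standard errors 56 were higher (26.1% of all genes) and 2 lower (27.2%). The 3 comparisons share the parental array and are not independent of each other.

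**Figure D1:**
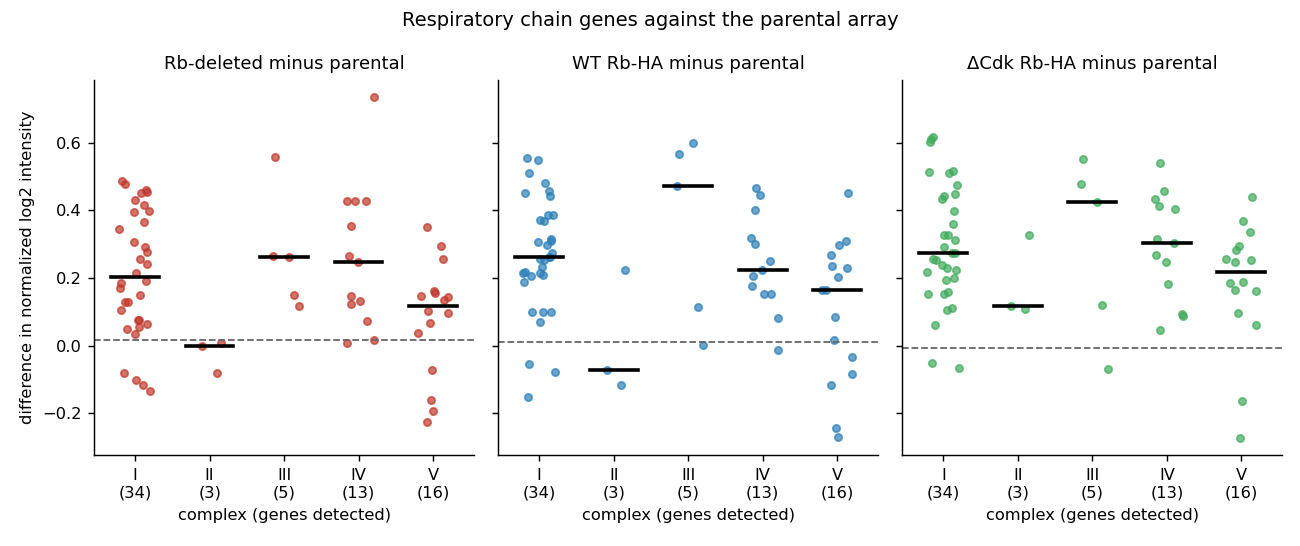
Difference from the parental array in normalized log2 intensity (y axis) for each detected gene of the chain (points), by complex (x axis), with 1 panel for each of the other 3 arrays. Black bars are medians of a complex and the dashed line is the median of all 12616 genes. Most points lie above the dashed line, whereas the median of complex II lies near or below it for Rb-deleted and for WT Rb-HA MEFs.

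The size of these differences moved with the position of the probe in its transcript, counted in bases from the 5′ end. Short messenger RNAs can hold only probes with low positions. Probes of the chain began at a median of base 388 over the 66 genes with a curated RefSeq transcript, against base 1997 over all 9378 such genes. Other genes that were at least as bright as the lower quartile of the chain, and whose probe began before base 400, had medians of 0.14, 0.24 and 0.30 (214 genes). The 35 genes of the chain with probes in that stretch had 0.17, 0.27 and 0.31. Other bright genes with early probes thus had medians close to those of the chain.

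Between base 400 and base 1000 the chain (21 genes) had medians of 0.14, 0.22 and 0.24, and the other bright genes (481) had 0.13, 0.15 and 0.19. From base 1000 on, the chain (10 genes) had 0.08, -0.02 and 0.11, and the other bright genes (1948) had -0.03, -0.06 and -0.08. When each gene was set against the other bright genes with probes in the same stretch, a comparison chosen after the data were seen, the median over the 66 genes was 0.03, 0.05 and 0.05, and 42, 37 and 38 of the 66 genes lay above the median of those other genes. The median bead standard error of a gene of the chain was 0.06 in each comparison, which is the error of a single gene and not of a median over genes. Genes with early probes were thus higher than parental on all 3 arrays outside the chain too, which bears on every difference from parental given here. Whether the parental array differed in RNA quality or labelling was not tested, nor was the part of probe position in the difference of the chain. Detected leukocyte markers were also lower on the same 3 arrays, apart from Cd53, which was above parental in ΔCdk Rb-HA MEFs, at 0.39. The part of these markers in the difference was not tested. In such bulk RNA, fewer cells of a type and less RNA per cell cannot be told apart.

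**Figure D2:**
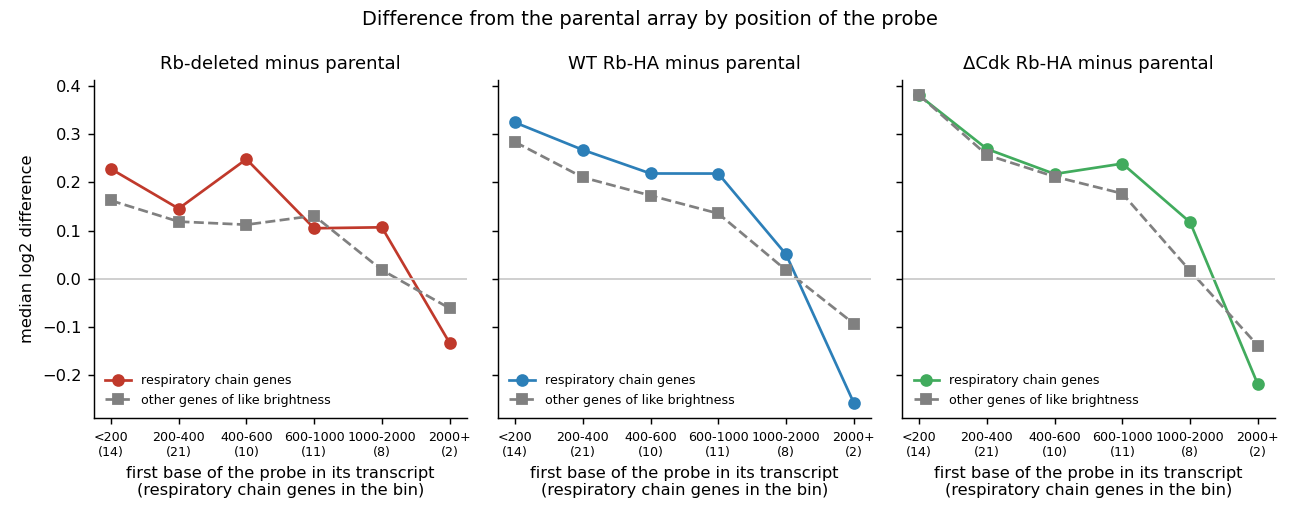
Median log2 difference from the parental array (y axis) by the first base of the probe in its transcript (x axis, in bases), for genes of the chain (coloured circles) and for other genes at least as bright as the lower quartile of the chain (grey squares), with 1 panel per array. The number of chain genes in each bin is in brackets. For both kinds of Rb-HA MEFs the lines are highest before base 200, and on all 3 arrays both are below 0 from base 2000 on, where 2 chain genes lie.

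Only 1 gene of the chain passed 1.6-fold in any comparison. Cox6b2, a testis-enriched isoform of the small complex IV subunit VIb, on chromosome 7, read 213, 332, 207 and 216. The Rb-deleted array stood apart and the other 3 lay between 207 and 216. Its log2 differences from parental, with bead standard errors in brackets, were 0.74 (0.09), -0.01 (0.10) and 0.09 (0.11). Past 1.6-fold higher in Rb-deleted MEFs were 2.14% of all genes, and Cox6b2 ranked at place 195 of them from the top. Against Rb-deleted MEFs it was lower by 1.6-fold in WT Rb-HA MEFs, at -0.75 (0.09), where 0.484% of all genes were, and stood at -0.65 (0.09) in ΔCdk Rb-HA MEFs. In the other comparisons and directions no gene of the chain passed that limit. Of all genes, 2.98% were past it below parental in Rb-deleted MEFs, 0.888% above and 2.46% below in WT Rb-HA MEFs, and 2.58% above and 3.3% below in ΔCdk Rb-HA MEFs. Against Rb-deleted MEFs 0.539% of all genes were past it above in WT Rb-HA MEFs, and 2.31% above and 1.95% below in ΔCdk Rb-HA MEFs.

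The measurement of Cox6b2 rests on the probe at base 480. A second probe, at base 21, lay at background on all 4 arrays, with intensities from 39.7 to 47.0. With no background correction the difference of Rb-deleted from parental was 0.67, and with an offset of 50 it was 0.64, both just under the 1.6-fold limit of 0.68. For WT Rb-HA minus Rb-deleted an offset of 50 gave -0.66, also inside the limit, and neither difference passed the limit by more than 2 bead standard errors. For ΔCdk Rb-HA minus Rb-deleted an offset of 0 gave -0.70, past the limit. Its ubiquitous counterpart Cox6b1 read 4761, 5462, 5499 and 5575. Cox6b1 was higher than parental by 0.25, 0.22 and 0.25, with no step between the 3 arrays like that of Cox6b2. Suv420h2 (Kmt5c), a neighbour of Cox6b2 on the chromosome that encodes a histone methyltransferase, read 138, 184, 160 and 159.

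**Figure D3:**
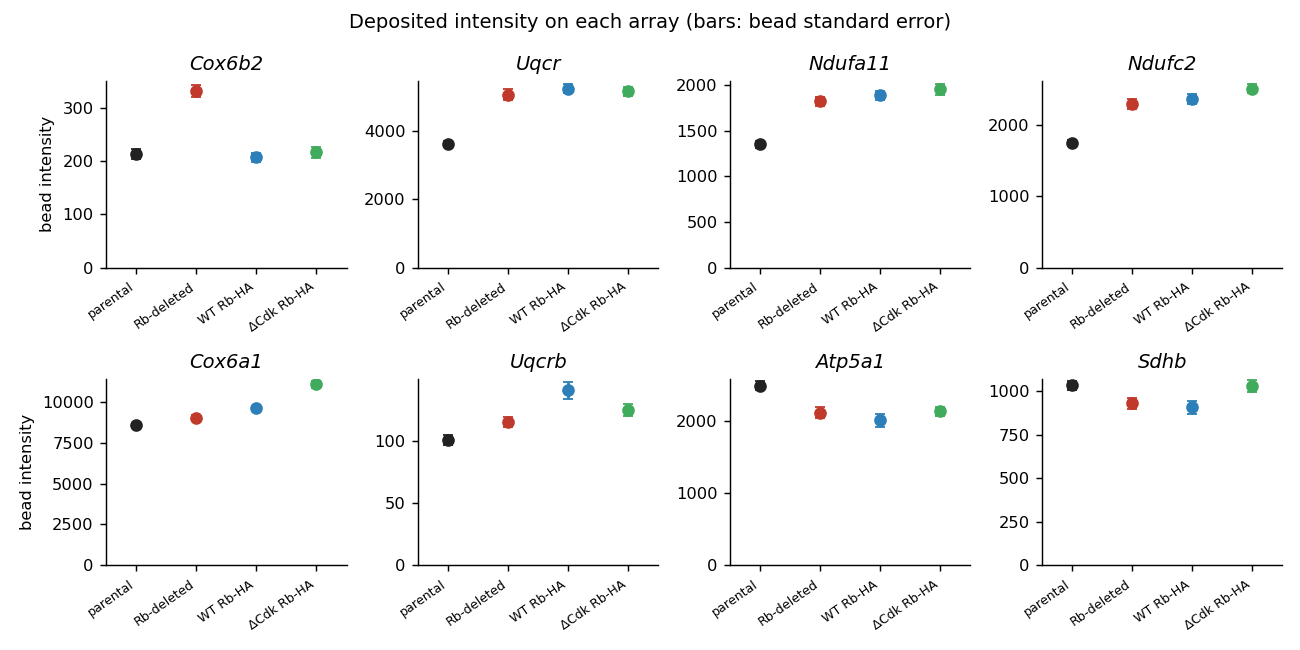
Deposited intensity (y axis, linear, from 0) of 8 genes of the chain on each of the 4 arrays (x axis). Points are single arrays and bars are bead standard errors. Cox6b2 is high on the Rb-deleted array alone, Cox6a1 is highest on the ΔCdk Rb-HA array, and Uqcr, Ndufa11 and Ndufc2 are lowest on the parental array.

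Complex I, the largest complex, had medians of 0.20, 0.26 and 0.27 over 34 genes. Above parental were 30, 31 and 32 genes, beside 52.3%, 51.3% and 48.9% of all genes. The NADH-oxidising module, which holds the flavin site, had medians of 0.30, 0.24 and 0.23 over 6 genes. The quinone-reducing module had 0.17, 0.28 and 0.38 over 8 genes, and the proton-pumping membrane arm had 0.20, 0.26 and 0.30 over 18 genes.

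Ndufa11, an accessory subunit of the membrane arm, read 1351, 1822, 1889 and 1953. The parental array was lowest and the other 3 lay close together, at log2 differences of 0.49, 0.56 and 0.61 (bead standard error 0.05 to 0.06). Ndufc2, another membrane arm subunit, read 1746, 2296, 2368 and 2507 and gave 0.48, 0.51 and 0.62. Its dim second probe, at base 335, gave -0.10, -0.11 and 0.07, so the higher signal was seen by 1 of its 2 probes.

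Ndufb9, an accessory subunit of the membrane arm, read 750.4, 790.0, 695 and 830.1. The WT Rb-HA array was lowest, and the difference was 0.31 (0.09) for ΔCdk Rb-HA minus WT Rb-HA.

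Ndufa1 and Ndufb5 were below parental on all 3 arrays. Ndufa1, an essential membrane arm subunit on the X chromosome, read 5023, 4424, 4801 and 4801. Its log2 differences were -0.14, -0.08 and -0.07 (bead standard error 0.04 to 0.05). Ndufb5 stood at -0.08, -0.15 and -0.05 (0.06 each). Ndufs6, of the NADH-oxidising module, was the lowest complex I gene in ΔCdk Rb-HA against Rb-deleted MEFs, at -0.23 (0.05). Ndufv2, a flavoprotein subunit, stood at -0.21 (0.05) for ΔCdk Rb-HA minus WT Rb-HA. Ndufb4, of the membrane arm, read 262, 237, 306 and 267, and was the highest chain gene for WT Rb-HA minus Rb-deleted, at 0.41 (0.12). Ndufb11, not detected on the parental array, was at least 1.02-fold higher in WT Rb-HA MEFs, with no bound for the other MEFs. A probe described as similar to Ndufb11 was detected on all 4 arrays and read 199, 246, 237 and 263. Its log2 differences were 0.38 (0.08), 0.32 (0.07) and 0.52 (0.08).

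Complex II differed from the other complexes in its medians, which were -0.07 in WT Rb-HA and 0.12 in ΔCdk Rb-HA MEFs, and near 0 in Rb-deleted MEFs, over 3 genes. Sdhb, the iron-sulphur subunit, read 1035, 932, 908 and 1030. Sdhc, a membrane anchor that binds heme, read 1703, 1643, 1887 and 2008. Sdhd, the other anchor, read 498, 485, 459.9 and 507. Against WT Rb-HA MEFs all 3 were higher in ΔCdk Rb-HA MEFs, by 0.22 (0.08), 0.10 (0.06) and 0.19 (0.09). Sdha, the flavoprotein, was not detected. Probes of complex II lay late in their transcripts, at a median base of 952, and with so few genes the median is that of a single gene.

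Complex III had medians of 0.26, 0.47 and 0.43 over 5 genes. Those of both Rb-HA arrays were the highest of the 5 complexes, whereas that of Rb-deleted MEFs lay beside 0.25 for complex IV and was below it with no background correction, at 0.20, and with an offset of 50, at 0.19. The small subunits were higher, with 0.26, 0.57 and 0.48 over 3 genes, against 0.13, 0.06 and 0.02 for both core proteins. Uqcr (Uqcr11) read 3621, 5046, 5223 and 5147. The last 3 differed by less than their bead error, and their log2 differences from parental were 0.56, 0.57 and 0.55 (0.05 each). Uqcrh, the hinge protein that helps dock cytochrome c, read 6235, 7290, 8502 and 8488.

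Uqcrb, the ubiquinone-binding protein, was dim, at 101, 115, 141 and 125. At 0.60 (0.11) it was the highest gene of the chain in WT Rb-HA MEFs. A probe described as similar to Uqcrb read 2479, 2203, 2516 and 2348, so a like-named transcript measured by a bright probe did not share that order. Uqcrc2, a core protein, read 2005, 2077, 1928 and 1804 and was the lowest gene of complex III in ΔCdk Rb-HA MEFs, at -0.07 (0.05).

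Complex IV had medians of 0.25, 0.22 and 0.30 over 13 genes. In Rb-deleted and ΔCdk Rb-HA MEFs all 13 were above parental, beside 52.3% and 48.9% of all genes. Isoforms found in most tissues (Cox4i1, Cox6a1, Cox6b1, Cox7a2) had medians of 0.19, 0.19 and 0.33. Cox4i1, the regulatory subunit that binds ATP, read 7919, 10211, 9907 and 10302. Cox6a1 read 8592, 9039, 9598 and 11072. ΔCdk Rb-HA was the highest array for Cox6a1 by both of its probes. Over WT Rb-HA MEFs the first probe gave 0.25 (0.03) and the second 0.12 (0.06). Against parental the first gave 0.40 and the second 0.38.

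Cox7a2 gave 376, 399, 401 and 397, within 0.18 of parental on each array. The muscle isoforms Cox6a2 and Cox7a1 were detected near the limit, Cox6a2 at 67.1, 70.9, 84.8 and 68.2, and Cox7a1 at 85.2, 105, 97.6 and 98.3. Cox6a2 was highest on the WT Rb-HA array, at 0.47 (0.15) from parental, and was the lowest chain gene in ΔCdk Rb-HA against WT Rb-HA MEFs, at -0.42 (0.16). The ubiquitous isoform Cox8a was not analysed here under its own symbol. A probe described as similar to subunit VIII read 7673, 8028, 8540 and 9371. Cox7a2l, a factor in supercomplex assembly, was the highest gene of the group in ΔCdk Rb-HA MEFs by brightest probes, at 0.54 (0.06). Its second probe gave 0.23 (0.09), and the second probe of Cox5b gave 0.71 (0.12).

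Complex V had the smallest medians after complex II, 0.12, 0.16 and 0.22 over 16 genes. Atp5a1, the alpha subunit of the catalytic head, read 2497, 2121, 2016 and 2140. It was lower on all 3, at -0.19 (0.07), -0.27 (0.08) and -0.16 (0.06), and its probe lies at base 2004. Atp5b, the catalytic beta subunit, read 18614, 19936, 18885 and 20053, within 0.10 of parental. Atp5d and Atp5e, small subunits of the central stalk, differed in their order, with Atp5d lowest on the WT Rb-HA array, at -0.23 (0.06) from Rb-deleted MEFs.

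The c ring, which turns as protons pass, is encoded by several genes for 1 identical mature protein. Atp5g2 read 635, 679, 839 and 803, and both Rb-HA arrays were higher than the Rb-deleted array by 0.32 (0.11) and 0.31 (0.10). Atp5g3 read 19158, 19969, 20303 and 21061, within 0.10 of parental, and Atp5g1 was not analysed here. Atp5f1 (Atp5pb), of the peripheral stalk, was the member whose probes disagreed by over 1.6-fold. In WT Rb-HA MEFs its 3 detected probes ran from -0.33 at base 950 to 0.41 at base 607. Atp5s and Atp5sl, matched by symbol, were dim, at 66.0, 59.1, 63.9 and 73.4, and at 148, 139, 127 and 123. They gave the lowest values in Rb-deleted MEFs, at -0.23 (0.15), and in ΔCdk Rb-HA MEFs, at -0.27 (0.09). Atp5s stood at 0.37 (0.12) for ΔCdk Rb-HA minus WT Rb-HA.

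Between the MEFs treated with TAT-Cre the chain differed little. For WT Rb-HA minus Rb-deleted the median was 0.03 with 43 genes above 0 and 26 below (46.1% and 53.7% of all genes), and past 0.32 were 2 genes higher and 1 lower (6.21% and 7.63% of all genes). For ΔCdk Rb-HA minus Rb-deleted it was 0.05 with 52 above and 18 below (45.4% and 54.4% of all genes), and past 0.32 were 6 higher and 1 lower (11.7% and 14.2%). For ΔCdk Rb-HA minus WT Rb-HA it was 0.05 with 52 above and 19 below (48.5% and 51.3% of all genes), and past 0.32 were 2 higher and 1 lower (8.24% and 7.78%). Past 1.6-fold these comparisons held Cox6b2 for WT Rb-HA minus Rb-deleted and no other gene of the chain, and in ΔCdk Rb-HA against WT Rb-HA MEFs 0.84% of all genes were higher and 1.01% lower at that limit. By more than 2 bead standard errors 19 genes were higher and 6 lower for WT Rb-HA (15% and 18.8% of all genes), and 26 higher and 6 lower for ΔCdk Rb-HA (21.2% and 27.1%), against Rb-deleted MEFs. By the same rule 15 genes were higher in ΔCdk Rb-HA than in WT Rb-HA MEFs and 3 lower, where 17.6% and 18.9% of all genes were.

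Start regions of the genes were read for the motifs of factors known to bind respiratory chain promoters, NRF-1, GABP of the ETS family and YY1, and for the E2F motif, since E2F is held by Rb. RefSeq start regions (GRCm38.p6), from 250 bases before to 50 bases after the start, were found for 58 of the 71 genes. Letters were searched on both strands, and a gene was counted once for each motif, if any of its start regions held the letters. The share of all promoters instead counts single start regions, including those of genes not analysed here, so it is not a like comparison. The letters GCGCA, any base and GCGC, for NRF-1, were found in 14 genes (24.1%, against 11.6% of 7478 analysed genes and 4.60% of all promoters in the RefSeq table). CCGGAAG for the ETS family was also found in 14 genes (24.1%, against 20.5% and 8.86%). AAGATGGCG for YY1 was found in 8 genes (13.8%, against 3.66% and 1.40%). TTTNNCGC, a loose pattern for E2F with any base at both places marked N, was found in 4 genes (6.90%, against 10.1% and 5.17%). A stricter form, with G or C at both places, was met by Cox5a alone among these 4.

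Windows of 30 bases, 5′ to 3′ on the strand of the gene and with the motif in capitals, are shown for Uqcr and Ndufa11, high on all 3 arrays, for 1 gene with the YY1 letters and for the 4 with the E2F letters.
Uqcr, ETS, chr10:80406869-80406898, minus strand: ttctctcctccCCGGAAGtagatgtcaatg
Ndufa11, NRF-1, chr17:56717692-56717721, plus strand: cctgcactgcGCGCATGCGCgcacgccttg
Ndufc1, YY1, chr3:51408914-51408943, minus strand: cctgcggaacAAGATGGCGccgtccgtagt
Ndufb8, E2F, chr19:44555422-44555451, minus strand: ccgtgacccgcTTTTGCGCatgtgcagagt
Cox5a, E2F, chr9:57521094-57521123, plus strand: atcggaccagcTTTGGCGCggcgccgacgt
Ndufs7, E2F, chr10:80249274-80249303, plus strand: aagttctttatTTTGTCGCtgtttcctgtt
Sdhd, E2F, chr9:50603843-50603872, minus strand: cctcaccgttcTTTTACGCggggcgggact

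With the NRF-1 letters the median differences were 0.15, 0.29 and 0.28, and without them 0.16, 0.22 and 0.25. The 4 genes with the loose E2F letters had medians of 0.29, 0.23 and 0.28, and the rest 0.15, 0.23 and 0.25. With the ETS letters the medians were 0.20, 0.25 and 0.33, and without them 0.15, 0.22 and 0.24. With the YY1 letters they were 0.18, 0.25 and 0.25, and without them 0.15, 0.23 and 0.26. Ndufb8 stood at 0.36, 0.26 and 0.36, and Sdhd at -0.07 in WT Rb-HA and 0.12 in ΔCdk Rb-HA MEFs. None of the 4 motifs was found in the Cox6b2 window. A match of letters is a description and says nothing of binding in these MEFs.

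Other groups of mitochondrial genes did not all follow the chain. Genes of the mitochondrial ribosome (69) had medians of 0.30, 0.25 and 0.25 against parental, and their probes began at a median of base 720. In each of the 3 comparisons 61 of the 69 were above 0, beside 52.3%, 51.3% and 48.9% of all genes. Past 1.6-fold among these 69 genes were Mrps24 at 0.72 in Rb-deleted, Mrps21 at 0.71 in WT Rb-HA, and Mrps21 at 0.80 and Mrpl53 at 0.76 in ΔCdk Rb-HA MEFs. Cytosolic ribosomal genes (57), with probes at a median of base 295, had 0.09, 0.11 and 0.12, and Rps15 alone passed 1.6-fold, at 0.69 in Rb-deleted MEFs. Assembly factors of the chain (19) had 0.03, 0.09 and 0.06, and the tricarboxylic acid cycle (17) had 0.02, 0.04 and -0.03, with probes at medians of base 1425 and base 1762. Regulators of mitochondrial biogenesis (16) had 0.04, 0.02 and -0.01, with probes at a median of base 2076. Other bright genes with probes from base 2000 on had -0.06, -0.09 and -0.14.

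Single regulators differed more. Gabpa, the DNA-binding subunit of GABP, read 109, 77.8, 103 and 116 and stood at 0.75 for ΔCdk Rb-HA minus Rb-deleted, and Ppargc1b, a coactivator of respiratory genes, read 57.8, 68.4, 57.6 and 50.3, near the detection limit, and stood at -0.76, both past 1.6-fold. Cyc1 and Cycs, the cytochrome c1 of complex III and cytochrome c itself, stood at 0.35, 0.34 and 0.28 and at 0.05, 0.02 and -0.03. Atpif1, the inhibitor of complex V when it runs in reverse, stood at 0.42, 0.41 and 0.41. Ndufab1, the acyl carrier subunit of complex I, stood at 0.56, 0.21 and 0.32. Usmg5, listed with Cyc1, Cycs, Atpif1 and Ndufab1, was below parental in Rb-deleted MEFs, at -0.09. Against Rb-deleted MEFs Usmg5 stood at 0.27 in WT Rb-HA and 0.28 in ΔCdk Rb-HA MEFs.

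Subunits encoded in mitochondrial DNA lay on the other side. Of 8 detected, 7 were below parental in Rb-deleted, 7 in WT Rb-HA and 6 in ΔCdk Rb-HA MEFs, with medians of -0.33, -0.24 and -0.13. Of all genes 47.5%, 48.6% and 50.9% were below parental. None of these 8 had a curated RefSeq transcript, so they could not be compared by probe position as the chain was. mt-Nd4l, of complex I, read 1002, 314, 772 and 784, and the Rb-deleted array stood apart, at -1.69 from parental and past 1.6-fold below each of the others. mt-Co2, of complex IV, read 7012, 4176, 3959 and 4718, at -0.67, -0.78 and -0.53. mt-Nd5 went the other way, at 0.58, 0.54 and 0.59, on a dim probe that read 175 to 245.

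**Figure D4:**
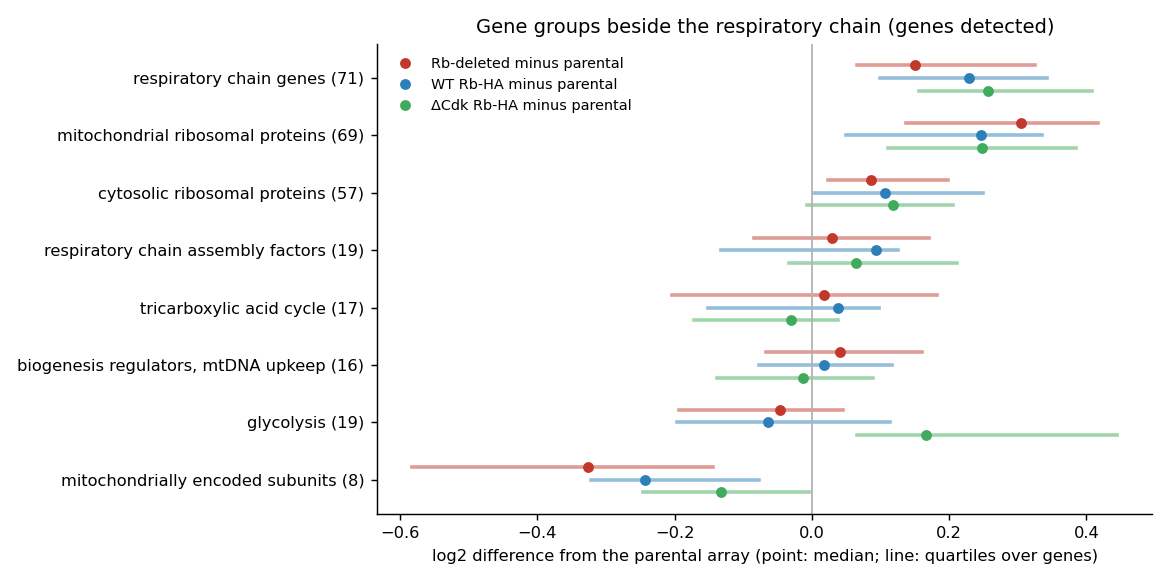
Median log2 difference from the parental array (x axis, points) with the quartiles over genes (lines) for the chain and for other gene groups (y axis, detected genes in brackets), coloured by array. The chain and the mitochondrial ribosome lie to the right of 0 on all 3 arrays, subunits encoded in mitochondrial DNA lie to the left, and glycolysis is to the right only for ΔCdk Rb-HA.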

How the data were processed

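RNA of 4 MEF cultures was measured on Illumina MouseWG-6 v2.0 BeadChips, 1 array each. The authors deposited the intensity of each of 45281 probes, averaged over its beads on a linear scale and not normalized between arrays. Beside each intensity the deposited table holds a detection p-value, a standard error over beads and a bead number. How the arrays were processed is described by the study only through a citation. Every per-sample column was used (0 left out). Symbols of 40 probes had turned into dates, and 34 were restored by Entrez number through RefSeq genes on GRCm38.p6. RefSeq matched 67 of the 71 genes.

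Background was corrected with limma 3.58.1 (R 4.3.3) by normexp, inferred from the detection p-values, with an offset of 16, followed by quantile normalization and log2. Genes needed 1 probe with detection p-value under 0.01 on any array (17746 probes, 12616 genes). Differences were counted past 1.6-fold (0.68 on the log2 scale), past 0.32 on the log2 scale, and past 2 bead standard errors, where bead errors were carried to the log2 scale and combined over both arrays. For a probe detected on only 1 array of a pair, the fold is a lower bound against the lowest detected normalized value there. Tables and plots used Python 3.11.15, numpy 2.4.6, pandas 2.3.3 and matplotlib 3.10.9.

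With 1 array per condition no p-value was computed, and the number of arrays limits the precision. The members, the gene lists and the rule for genes named were chosen with earlier results of these data known. Named were genes past 1.6-fold, the 3 largest differences each way in each comparison, the 3 brightest and 3 dimmest genes, isoforms of complex IV, subunits of complex II, the c ring, genes whose probes disagree by 1.6-fold, and genes of mitochondrial and glycolytic lists past 1.6-fold. A few others are given as examples of their complex, chosen after their values were seen, as was the comparison by probe position. Alternatives changed background, offset, normalization, filter, probes per gene, members, fold limit and bead error. Values of 1 gene that the rule names are not reported here.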

Additional observations from a re-analysis of the deposited data

How the results depend on the processing

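Medians of the chain kept their direction under all 10 alternatives fixed at the start, in all 6 comparisons (60 of 60 values). These medians moved by less than the typical bead standard error of a single gene, which is not the error of a median. They ran from 0.11 to 0.16 for Rb-deleted, 0.20 to 0.23 for WT Rb-HA and 0.21 to 0.28 for ΔCdk Rb-HA against parental. The smaller medians between the other MEFs moved by over 1.5 times, from 0.02 to 0.05 for WT Rb-HA minus Rb-deleted, 0.05 to 0.09 for ΔCdk Rb-HA minus Rb-deleted and 0.03 to 0.06 for ΔCdk Rb-HA minus WT Rb-HA. Set against other bright genes with probes in the same stretch of the transcript, which was chosen after the data were seen, they moved to 0.0297 for Rb-deleted, 0.0491 for WT Rb-HA and 0.0480 for ΔCdk Rb-HA against parental. Counts past 1.6-fold stayed low. For Rb-deleted against parental the count of 1 was 0 with no background correction, with an offset of 50, at 2-fold and when 1.6-fold had to be passed by more than 2 bead standard errors. For WT Rb-HA against Rb-deleted the count of 1 was 0 with an offset of 50, at 2-fold and with 2 bead standard errors. An offset of 0 gave 2 genes for WT Rb-HA against parental and 2 for ΔCdk Rb-HA against Rb-deleted, where no normalization gave 1, and the mean over probes gave 1 for ΔCdk Rb-HA against parental. Past 0.32 on the log2 scale the counts were 18, 18 and 26 against parental, 3 for WT Rb-HA and 7 for ΔCdk Rb-HA against Rb-deleted, and 3 for ΔCdk Rb-HA against WT Rb-HA. No scaling moved the median of all genes past 0.1. Leaving out a replicate was not possible with 1 array per condition. No paired analysis was possible because each condition has a single array. Dim probes such as Ndufb11, Atp5s, Cox6a2 and Cox7a1 lie near the detection limit.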

Other observations

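Glycolysis stood apart from the chain in ΔCdk Rb-HA MEFs. Of 19 detected glycolytic genes 17 were higher for ΔCdk Rb-HA minus Rb-deleted (45.4% of all genes), with a median log2 difference of 0.27. For ΔCdk Rb-HA minus WT Rb-HA 17 were higher (48.5% of all genes), also with a median of 0.27. Over all 12616 genes the medians were -0.03 and -0.01. In Rb-deleted and WT Rb-HA MEFs the same list lay at -0.05 and -0.06 against parental, with 8 genes above 0 in each (52.3% and 51.3% of all genes). In ΔCdk Rb-HA MEFs it lay at 0.17 with 17 above 0 (48.9% of all genes). Under the other 6 scalings the median of ΔCdk Rb-HA minus Rb-deleted ran from 0.25 to 0.31. Glycolytic probes began at a median of base 1632. Other bright genes with probes from base 1000 to base 2000 had a median of 0.02 for ΔCdk Rb-HA minus parental. Against Rb-deleted and WT Rb-HA MEFs those genes had -0.01 and 0.01. The part of probe position in the glycolytic difference was not tested.

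Past 1.6-fold above parental in ΔCdk Rb-HA MEFs were 3 of the 19 glycolytic genes, where 2.58% of all genes were. Pgam1, phosphoglycerate mutase, read 382, 396, 410.1 and 612 over the 4 arrays, in the order used above. Pfkl, the liver form of phosphofructokinase, read 661, 641, 742 and 1022. Pdk1, the kinase that blocks entry of pyruvate into the tricarboxylic acid cycle, read 81.4, 74.5, 81.9 and 117. Against parental they stood at 0.80, 0.74 and 0.72 in ΔCdk Rb-HA MEFs. Pgk1 read 4829, 3627, 3706 and 5220, and its log2 differences from parental were -0.39, -0.38 and 0.12.

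Carriers of the inner and outer mitochondrial membrane (6 genes) had medians of 0.21 for ΔCdk Rb-HA minus Rb-deleted and 0.18 for ΔCdk Rb-HA minus WT Rb-HA MEFs. Slc25a3, the phosphate carrier that supplies complex V, read 7327, 6173, 6522 and 7886. Slc25a4, an ADP/ATP carrier, was dim at 93.2, 70.4, 71.5 and 88.9, whereas Slc25a5, the other ADP/ATP carrier, read 8439, 8142, 8169 and 7807. These values have no replicate check.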
